A study of Homo sapiens with 6 samples.

Results

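The libraries described here are 4 of the 6 made from U2OS cells, a human osteosarcoma line, that stably overexpress GFP fused to DCP1A, a subunit of the mRNA decapping enzyme found in P-bodies (cytoplasmic granules of mRNA decay). They were paired across their labels. Side A holds the libraries labelled hypertonic 1 and isotonic 2, and side B those labelled isotonic 1 and hypertonic 2. The pairing was chosen by the similarity of whole expression profiles of these same libraries and by high counts of SLC38A2, NFAT5 and FOS on side A, so the labels of number 2 may be exchanged. Everything below is therefore given as side A against side B, and no side is called treated or untreated. Under the labels, isotonic medium held 150 mM sodium (a mock addition of the same volume of dilute phosphate-buffered saline) and hypertonic medium held 300 mM sodium from concentrated saline, for 4 h. The remaining 2 libraries, labelled rescue, had 4 h of isotonic medium after the hypertonic medium, and their levels are given beside the sides. All 6 libraries come from the same transgenic line, grown under selection for the transgene, and nothing in the labels tells whether libraries with the same label are separate cultures. Each library holds between 90196278 and 105991428 counts over 19940 gene rows, from RNA depleted of ribosomal RNA.

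Hypertonic medium draws water out of cells, which shrink and whose ions become concentrated. Cells are known to answer first by moving ions through transporters and the sodium-potassium pump, and by stress kinases that switch on immediate early transcription factors. Later, the factor NFAT5 is known to induce transporters and enzymes that fill the cell with compatible osmolytes such as taurine, inositol, betaine and sorbitol.

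Levels are given in CPM, the count of a gene relative to its library total, after scaling by the trimmed mean of M-values. Over the 12688 genes that averaged 5 CPM or more in the 4 libraries of the sides the log2 ratio, with 0.1 CPM added, had an SD of 0.0866 between the libraries of side A and 0.0696 between those of side B. Between the mean of side A and the mean of side B it was 0.816, and between the rescue libraries it was 0.0995. A difference of 2-fold or more separated the libraries of side A for 3 genes and those of side B for 2 genes, against 2052 genes between the side means. Since the sides were chosen for this likeness, these spreads describe the choice and support nothing. The serial numbers carried by the deposited files place the libraries of each side next to each other, so side and that order cannot be told apart, and what the numbers stand for is not given. KTI12, HTR2B and SUMO4 were the 3 genes in side A, and HTR2B and SPESP1 the 2 in side B. HTR2B, a serotonin receptor gene, had a level of 8.07 CPM in hypertonic 1 against 3.62 CPM in isotonic 2. On side B it had 4.27 CPM in isotonic 1 against 9.13 CPM in hypertonic 2. It was thus higher in the library labelled hypertonic on either side. In rescue, where both libraries share a label, it had 3.25 and 5.8 CPM, so it also varied without a difference in label.

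**Figure D1:**
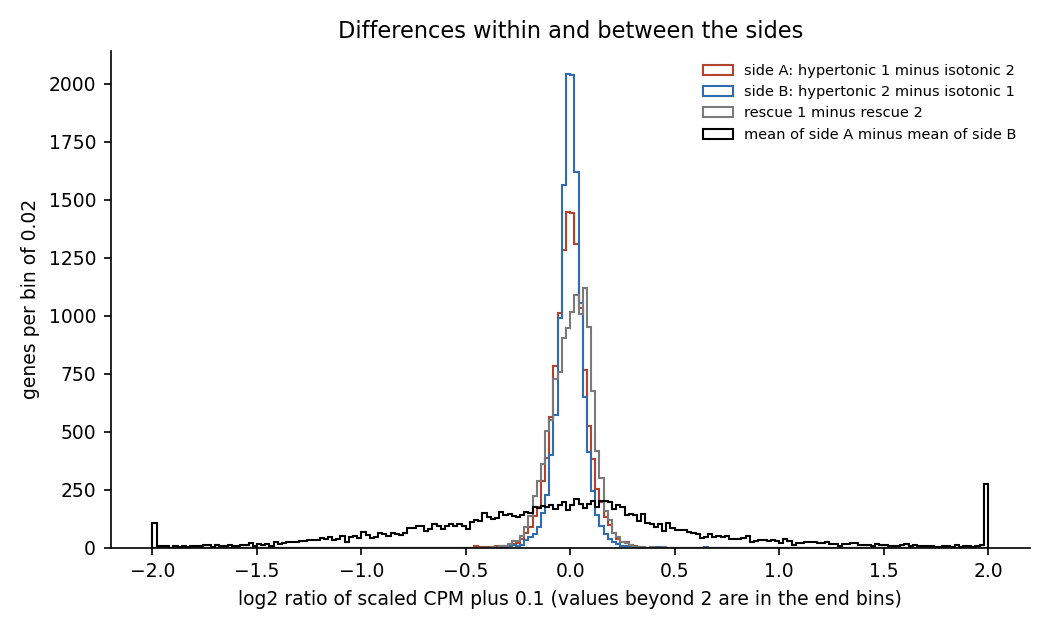
Histogram of the log2 ratio of scaled CPM plus 0.1 over 12688 genes, between the libraries of each side, between the rescue libraries and between the side means. The ratios within the sides form narrow peaks with SDs of 0.0866 and 0.0696, and the ratio between the side means is spread widely, with an SD of 0.816.

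Comparisons by the labels are given as values only, since the choice of the sides bears on both. The sides cross the labels, so the whole difference between them falls into the spread of the labelled comparison. Hypertonic against isotonic as labelled gave 0 genes at an adjusted p under 0.05, a share of 0% of 18208, with edgeR's quasi-likelihood test and Benjamini-Hochberg adjustment. Before adjustment, 52 genes had a p under 0.05. By DESeq2 1 gene was called and by limma voom 0. The spread inside the labelled groups was a biological coefficient of variation of 38.4%. A further fit asked whether the label separates the 2 libraries that share a side. With a mean for side A, side B and rescue and a term for the label, edgeR called 1 gene higher and 2 genes lower in the libraries labelled hypertonic, 0.0165% of 18208. Leaving out any 1 of the 6 libraries raised these counts, to between 3 and 9 higher and 10 and 26 lower, with the most lower, 26 and 24, without rescue 1 or rescue 2. The pairs were chosen for their likeness, the markers among the genes used, so a low number of calls says nothing about the labels. The p-values measure only the spread between these libraries. In the fit within the pairs that spread was a biological coefficient of variation of 3.745%. The choice of like libraries made it small, so a small p-value of that fit is no support for an effect of the label.

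Of the 3 calls, SULT1C2 and SULT1C4 encode cytosolic sulfotransferases and ANKRD28 a subunit of a protein phosphatase complex. SULT1C2 had 0.189 and 0.949 CPM in side A, in the order hypertonic 1 and isotonic 2, and 1.22 and 0.276 CPM in side B, in the order isotonic 1 and hypertonic 2, an order kept below. It was lower in the library labelled hypertonic on either side, by a log2 difference of -2.21 ± 0.223 (adjusted p = 1.1e-14, edgeR). These levels rest on 17, 76, 127 and 28 counts, and rescue stood at 21.2 and 18.9 CPM. SULT1C4 had 0 and 74 counts in side A and 0 and 2 counts in side B, so that its call (adjusted p = 0.002, edgeR) rests on isotonic 2. Without hypertonic 1 or without isotonic 2 its fitted value changed sign, to 4.10 and 4.13, with an adjusted p of 1, and DESeq2 did not call it (adjusted p = 1). ANKRD28 had 5549 and 4925 CPM in side A and 3988 and 5054 CPM in side B, a log2 difference of 0.26 ± 0.051 by the label (adjusted p = 0.0074, edgeR). Without any 1 of the 4 side libraries its adjusted p was 1. On its opposite strand lies a copy of 7SL, the abundant RNA of the signal recognition particle. Reads of that copy were not separated from those of the gene, and their part in the result was not tested.

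From here on the sides are compared. Every gene of these libraries entered the pairing, so side A against side B carries no test and no p-value. A gene is called higher or lower in side A where the side means of CPM differ by at least 2-fold and the libraries of the sides do not overlap. Log2 fold changes come from an edgeR fit of all 6 libraries. Their SE was derived from the F statistic of that contrast, which was used for nothing else. It rests on the spread within the sides and rescue, a biological coefficient of variation of 3.385%. The choice of like libraries made this SE small, and it does not cover the scaling. Of 18208 genes, 2613 were higher in side A (14.4%) and 1926 lower (10.6%). Among the 12688 genes at 5 CPM or more, which the counts below use, 974 were higher (7.68%) and 1102 lower (8.69%). No gene at that level passed 2-fold while its libraries overlapped. The split depends on scaling: with library totals alone the median log2 fold change of all genes moved by -0.147 and 762 genes were higher and 1501 lower. Changes below are relative to the scaling that centres that median at 0. The scaling factors were 0.885 and 0.888 in side A, 0.986 and 0.98 in side B and 1.14 and 1.15 in rescue. The place of rescue beside the sides was not checked under other scalings. Large differences were mostly upward. At 4-fold, 280 genes were higher and 108 lower, at 8-fold 87 and 10, and at 16-fold 31 and 1. Just outside the 2-fold threshold, from 1.9-fold, lay 107 genes higher and 200 lower, and just inside it, up to 2.1-fold, 105 and 160. Since the rule used this contrast, the list counts below are descriptions beside these backgrounds, and nothing is read from them. In bulk RNA, fewer cells with a transcript and less of it per cell cannot be told apart.

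**Figure D2:**
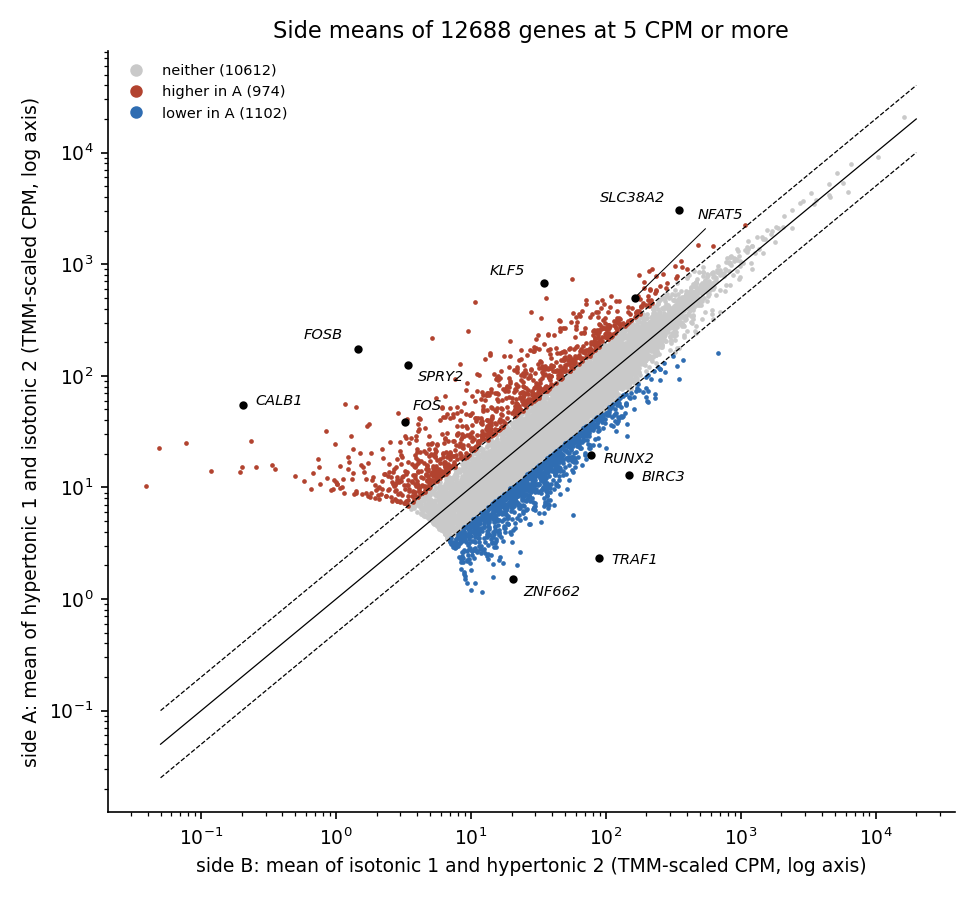
Mean CPM of side A against mean CPM of side B on log axes, 1 point per gene, for 12688 genes. The dashed lines mark 2-fold, the solid line equality, and 11 named genes are black; 974 genes are red (higher in A) and 1102 blue (lower in A), and TRAF1, at 2.28 and 2.4 CPM in side A, lies farthest below the line.

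Shares depended on level. Below a mean of 1 CPM, 35.1% of 3294 genes were higher in side A and 13.1% lower. From 5 to 50 CPM, 7.69% of 7373 genes were higher and 12.9% lower, and at 50 CPM or more 7.66% of 5315 genes were higher and 2.79% lower. Rows with no count numbered 1248 and 1270 in side A, 1627 and 1653 in side B and 690 and 699 in rescue. Mitochondrially encoded genes took 4.06% and 4.06% of the counts in side A, 4.71% and 4.82% in side B and 5.08% and 4.92% in rescue. The part of these measures in the results was not tested. Gene span went with direction as well. The median span was 56.0 kb for genes higher in side A, 39.0 kb for those lower and 36.4 kb for the rest. Of genes spanning 300 kb or more, 14.1% were higher, against 7.29% of those under 10 kb and 5.49% of those from 10 to 30 kb. The shares lower were 9.08%, 6.59% and 9.24% in the same order.

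**Figure D3:**
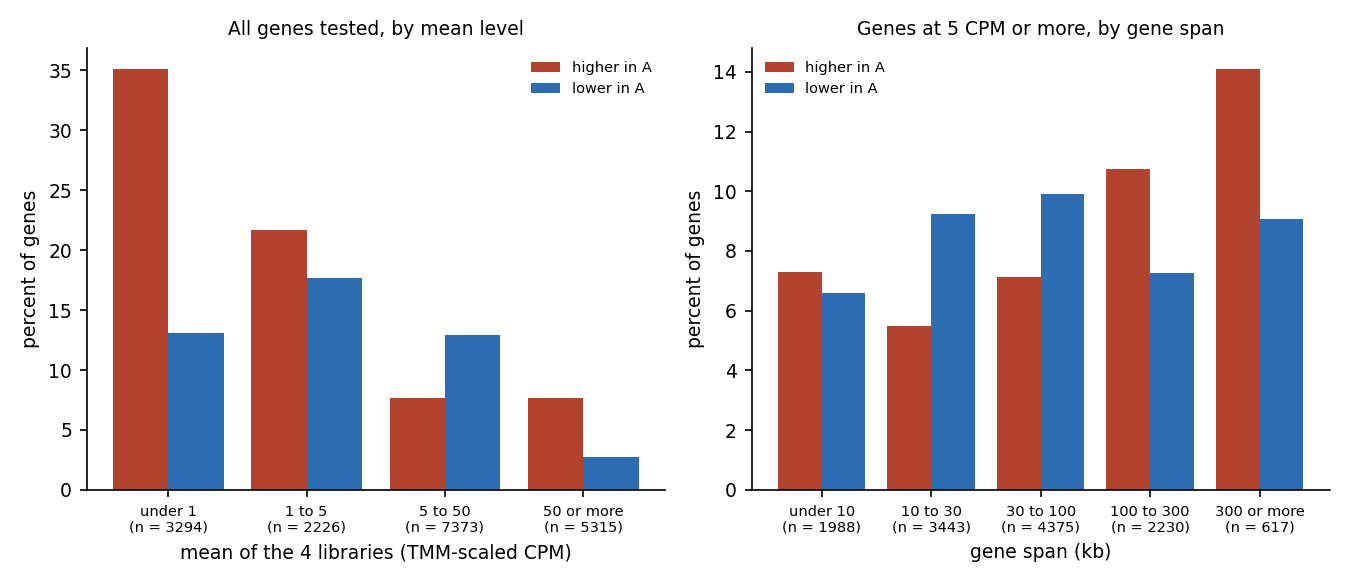
Bars give the percent of genes higher (red) and lower (blue) in side A, by mean level over all 18208 genes (left) and by gene span over genes at 5 CPM or more with a single location (right). The share higher is greatest below 1 CPM (35.1%) and, among spans, at 300 kb or more (14.1%).

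The osmolyte list held 6 genes higher in side A and 0 lower of 13 at 5 CPM or more, and SLC38A2 and NFAT5 among the 6 helped choose the sides. SLC38A2, which brings neutral amino acids into the cell and lies on chromosome 12 from 46358189 to 46372867 (GRCh38, GENCODE 29), stood at 3048 and 3072 CPM in side A and 346 and 351 CPM in side B, a log2 fold change of 3.13 ± 0.038. The level in rescue was 481 and 466 CPM, above side B and far below side A. NFAT5, the osmotic transcription factor (chromosome 16, 69565094 to 69704666), stood at 485 and 515 CPM in side A and 159.6 and 167 CPM in side B, a log2 fold change of 1.61 ± 0.044, and at 103 and 115 CPM in rescue, below either side. In both genes the libraries of the sides do not overlap, whatever their label, which the choice of the sides by these genes made likely. The taurine transporter gene SLC6A6 (chromosome 3, 14402576 to 14489349) stood at 415 and 406 CPM in side A and 109 and 104 CPM in side B, a log2 fold change of 1.95 ± 0.036, with rescue at 162 and 158 CPM. SLC6A6 overlaps GRIP2, and for any gene said below to overlap another, reads of the partner may be counted with it.

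The transporters of the other osmolytes pointed the same way. SLC5A3, the sodium and inositol cotransporter, had 789 and 807 CPM in side A and 170.0 and 181 CPM in side B and overlaps MRPS6. SLC6A12, the betaine transporter, had a mean under 5 CPM, with 5.1 and 4.97 CPM in side A and 0.481 and 0.394 CPM in side B, and rescue at 4.1 and 4.15 CPM was close to side A. AKR1B1, aldose reductase, which makes sorbitol from glucose, had 189.6 and 183 CPM in side A and 67.4 and 68.6 CPM in side B. SORD, which turns sorbitol into fructose, pointed down with 23.5 and 23.6 CPM in side A and 32.8 and 34.9 CPM in side B, under 2-fold. S100A4, a calcium-binding protein gene that hypertonicity is known to induce, had 17.5 and 15.3 CPM in side A and 4.76 and 4.15 CPM in side B and overlaps S100A3. The other 6 of the 13 were within 2-fold as well, among them the amino acid and choline transporter genes SLC7A1, SLC44A1 and SLC44A2 at 0.12, 0.2 and 0.12. The log2 fold changes of the 13 had a median of 0.88, beside -0.04 over all genes at that level.

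Genes of ion and water transport were higher for beta subunits of the sodium-potassium pump and a kinase that stimulates sodium transport and lower for 1 subunit of the volume-regulated anion channel and for 2 kinases. ATP1B3, a beta subunit of the pump, had 339 and 351 CPM in side A and 65.3 and 64.2 CPM in side B, a log2 fold change of 2.41 ± 0.036. ATP1B1, another beta subunit, had 288 and 283 CPM in side A and 89.2 and 91.4 CPM in side B and overlaps NME7. SGK1, a kinase that stimulates sodium transport, had 88.6 and 95.6 CPM in side A and 14.7 and 16.8 CPM in side B, and rescue with 103 and 91.9 CPM was at the level of side A. AQP3, an aquaglyceroporin, had 12 and 12 CPM in side A and 1.6 and 1.71 CPM in side B, and rescue was higher than either side at 19.1 and 18.9 CPM. These genes thus differed in where rescue stood. KCNK5, a potassium channel of the family that sets the resting potential, had 60.3 and 58.7 CPM in side A and 15.9 and 15.9 CPM in side B. SLC12A2, the sodium, potassium and chloride cotransporter of volume recovery, had 168 and 175 CPM in side A and 90.7 and 91 CPM in side B, just under 2-fold. LRRC8C and LRRC8D are subunits of the volume-regulated anion channel and stood on opposite sides. LRRC8C had 108 and 118 CPM in side A and 44.2 and 46.9 CPM in side B and LRRC8D had 11 and 12.1 CPM in side A and 25.9 and 26.4 CPM in side B, and both overlap AC093423.3. The kinase genes SGK3 and WNK4 were lower, with log2 fold changes of -1.28 and -1.33. Of the 28 genes of the list, all at 5 CPM or more, 10 were higher and 3 lower, with a median of 0.54.

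**Figure D4:**
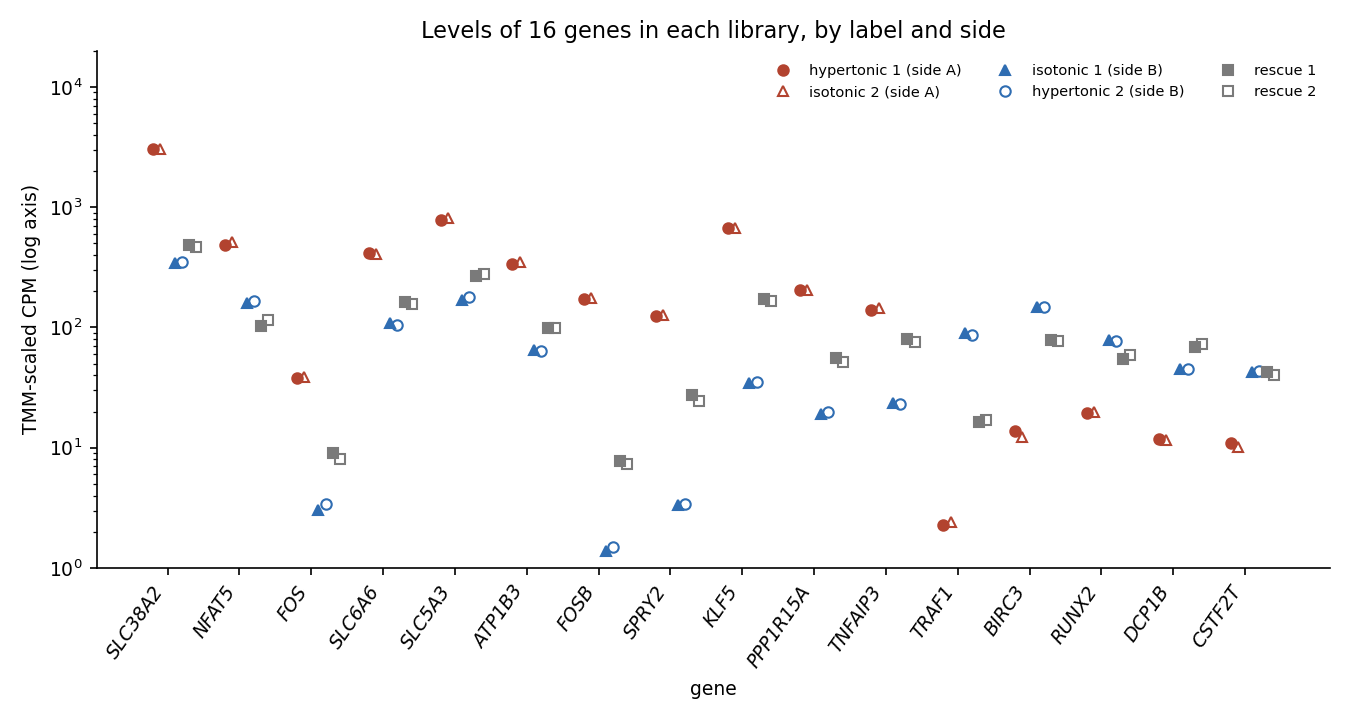
CPM on a log axis of 16 genes in each library, red for side A, blue for side B and grey for rescue; circles are libraries labelled hypertonic, triangles isotonic and squares rescue, and open symbols are number 2. For each gene the libraries of a side sit together and apart from the other side, as for SLC38A2 at 3048 and 3072 CPM against 346 and 351 CPM, while TRAF1, BIRC3, RUNX2, DCP1B and CSTF2T are reversed.

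Immediate early transcription factors had some of the widest differences. FOS (chromosome 14, 75278774 to 75282230), a partner in the AP-1 factor, stood at 38.2 and 38.5 CPM in side A and 3.02 and 3.41 CPM in side B, a log2 fold change of 3.57 ± 0.077, with rescue at 9.01 and 8.06 CPM. FOSB, its relative, stood at 173 and 176 CPM in side A and 1.38 and 1.51 CPM in side B, a log2 fold change of 6.91 ± 0.063, and overlaps ERCC1. FOSB had the largest ratio of the AP-1 list. FOSL1 had 257 and 249 CPM in side A and 45.6 and 45.9 CPM in side B and ATF3, a stress factor of the same superfamily, had 67.5 and 71.3 CPM in side A and 13.1 and 13.4 CPM in side B, with rescue above side A at 98.6 and 96.1 CPM. MAFF, a small MAF factor, had 143 and 138 CPM in side A and 12.8 and 12.4 CPM in side B and overlaps PLA2G6. Members did not move alike. JUN, the usual partner of FOS, had 80.4 and 81.2 CPM in side A and 80.6 and 82.1 CPM in side B, a log2 fold change of -0.01 ± 0.040 whose sign changed with scaling. FOSL2 and BATF3 pointed down, with log2 fold changes of -0.86 and -1.12. Of 13 genes tested, all at 5 CPM or more, 8 were higher and 1, BATF3, lower, with a median of 1.5.

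The EGR, NR4A and IER families, which also answer to growth factor and stress kinases within minutes, had 9 higher and 1 lower of 14 genes at 5 CPM or more, with a median log2 fold change of 2.57 over those 14. EGR1 stood at 209 and 221 CPM in side A and 29.6 and 31.5 CPM in side B, and rescue at 13.8 and 14.1 CPM was below side B. EGR2 stood at 21.5 and 22.3 CPM in side A and 1.42 and 1.24 CPM in side B. The orphan nuclear receptors NR4A1 and NR4A3 stood at 94.6 and 92.3 CPM in side A and 8.03 and 7.24 CPM in side B, and at 27.6 and 30.1 CPM in side A and 1.21 and 1.36 CPM in side B, with rescue between the sides in each. IER5, a regulator of heat shock factor, had 336 and 324 CPM in side A and 32.2 and 33.8 CPM in side B. BTG2, an antiproliferative gene often listed with them, was lower with 12.5 and 12.3 CPM in side A and 25.6 and 25 CPM in side B, while rescue reached 174 and 166 CPM. Among the Krüppel-like factors, which bind GC-rich promoters, 5 of 11 genes were higher and 0 lower. KLF5, a factor of epithelial growth, stood out at 676 and 674 CPM in side A and 34.8 and 35 CPM in side B, a log2 fold change of 4.27 ± 0.041, with rescue at 174 and 164 CPM. KLF2 had 15.4 and 13.9 CPM in side A and 1.32 and 1.14 CPM in side B, and KLF3, KLF10 and KLF13 had log2 fold changes of 1.65, 1.47 and 1.19.

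Negative feedback genes of the MAP kinases, which are transcribed when those kinases are active and then restrain them, were higher in 9 of 14 genes at 5 CPM or more and lower in 1. SPRY2, an inhibitor of receptor tyrosine kinase signalling, stood at 125 and 127 CPM in side A and 3.36 and 3.41 CPM in side B, a log2 fold change of 5.22 ± 0.063, with rescue at 27.3 and 24.4 CPM. ERRFI1, an inhibitor of the EGF receptor, stood at 736 and 742 CPM in side A and 56.5 and 55.6 CPM in side B. The dual-specificity phosphatase genes DUSP10, DUSP5 and DUSP2 had log2 fold changes of 2.3, 2.26 and 1.76. DUSP1, a phosphatase of the stress kinases, went the other way with 11.4 and 12 CPM in side A and 24.4 and 26.6 CPM in side B. The list's median was 1.27 over those 14 genes. With library totals 7 of its genes were higher and 1 lower.

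Upstream sequence is shown for 4 named genes with a match to a site for factors in these families, chosen after their values were seen: 2 with a cyclic AMP response element, which CREB and ATF proteins bind, and 2 with AP-1 sites, 1 of these higher and 1 lower in side A. The motifs searched were TGACGTCA and TGANTCA, each the same on either strand, in the 250 bases before the RefSeq start (GRCh38.p14), and capitals mark the matches. In this window TGACGTCA was held by 1.77% of all 27305 promoters given by RefSeq here, and TGANTCA by 6.6%. A match is a description of letters, not of binding. TGACGTCA was not limited to genes higher in side A. Besides MAFF and PPP1R15A, it was found for RBBP6, which was higher, and for CENPE, HIST1H4E and DUSP1, which were lower. The window of MAFF, higher in side A, is chr22:38201744-38201993 on the plus strand, with its match at -54 from the start. That of PPP1R15A, higher in side A, is chr19:48872171-48872420 on the plus strand, with its match at -58. That of F3, higher in side A, is chr1:94541760-94542009 on the minus strand, with matches at -223 and -210. That of CXCL8, lower in side A, is chr4:73740319-73740568 on the plus strand, with its match at -137.
MAFF: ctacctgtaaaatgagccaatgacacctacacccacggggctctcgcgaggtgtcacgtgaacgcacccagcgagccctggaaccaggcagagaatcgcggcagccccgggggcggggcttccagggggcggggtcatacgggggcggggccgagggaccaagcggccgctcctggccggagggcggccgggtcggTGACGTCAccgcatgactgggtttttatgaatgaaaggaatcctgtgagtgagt
PPP1R15A: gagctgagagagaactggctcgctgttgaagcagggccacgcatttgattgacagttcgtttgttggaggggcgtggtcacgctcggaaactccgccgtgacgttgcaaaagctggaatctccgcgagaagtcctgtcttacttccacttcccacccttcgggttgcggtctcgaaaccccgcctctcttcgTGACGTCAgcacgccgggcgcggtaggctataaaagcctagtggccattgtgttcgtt
F3: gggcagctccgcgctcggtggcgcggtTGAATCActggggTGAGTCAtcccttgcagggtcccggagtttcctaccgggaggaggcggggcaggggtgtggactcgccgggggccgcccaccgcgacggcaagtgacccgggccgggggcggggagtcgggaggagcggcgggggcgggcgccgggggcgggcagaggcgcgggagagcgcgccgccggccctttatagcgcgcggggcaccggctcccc
CXCL8: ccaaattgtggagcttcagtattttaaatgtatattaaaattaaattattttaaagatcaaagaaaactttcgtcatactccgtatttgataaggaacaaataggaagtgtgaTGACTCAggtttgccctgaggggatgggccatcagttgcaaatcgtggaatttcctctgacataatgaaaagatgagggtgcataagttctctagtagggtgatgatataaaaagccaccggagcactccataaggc
Of the 169 named genes past the 2-fold rule, 124 had a promoter in that set, under 80%, so the check of motif shares between higher and lower genes was void and is not given.

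NF-kB genes differed in both directions. In this pathway, inhibitors of the factor and the A20 deubiquitinase shut it off in feedback, and TRAF and cIAP proteins carry the signal from TNF receptors. TRAF1, a receptor adaptor (chromosome 9, 120902393 to 120929173), had the lowest ratio of all genes at 5 CPM or more, with 2.28 and 2.4 CPM in side A and 90.4 and 87.3 CPM in side B, a log2 fold change of -5.25 ± 0.067, with rescue at 16.2 and 17 CPM. BIRC3, the ubiquitin ligase cIAP2 (chromosome 11, 102317450 to 102339403), stood at 13.8 and 12.2 CPM in side A and 147 and 148 CPM in side B, a log2 fold change of -3.5 ± 0.050, with rescue at 79.1 and 77.3 CPM. In each the libraries of the sides did not overlap, as the rule for a call requires. RELB, a subunit of the alternative pathway, had 13.2 and 11.9 CPM in side A and 35.6 and 34.9 CPM in side B, and NFKBIE, an inhibitor, had 10.9 and 10.7 CPM in side A and 21.8 and 22 CPM in side B. The feedback genes TNFAIP3, which encodes A20, and NFKBIA, which encodes IkB-alpha, were higher. TNFAIP3 stood at 139 and 145 CPM in side A and 23.7 and 22.9 CPM in side B, a log2 fold change of 2.6 ± 0.045, and NFKBIA at 146 and 131 CPM in side A and 54.2 and 54.5 CPM in side B. The subunit genes NFKB1 and RELA differed by under 2-fold, with log2 fold changes of 0.72 and -0.29. Of the 19 genes, all at 5 CPM or more, 2 were higher and 6 lower, with a median of -0.45, and with library totals 2 were higher and 9 lower.

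Cytokine and interferon genes were mostly low. Of 18 cytokine and chemokine genes tested, 5 had a mean of at least 5 CPM. CXCL8, the neutrophil attractant whose promoter is shown above, had 2.5 and 2.34 CPM in side A and 8.55 and 8.51 CPM in side B, and CSF1, a macrophage growth factor, had 10.9 and 10.5 CPM in side A and 26.7 and 25.5 CPM in side B. IL11, of the interleukin 6 family, pointed up with 32.9 and 33.5 CPM in side A and 12.7 and 12.9 CPM in side B, as did CCL2 with a log2 fold change of 1.03, and LIF did not differ by more than 2-fold at -0.07. Among interferon-stimulated genes IFIT2 had 10.7 and 9.49 CPM in side A and 1.12 and 1.08 CPM in side B and overlaps LIPA, while IFIT5 had 6.7 and 7.18 CPM in side A and 16.3 and 17 CPM in side B. IFIH1, a sensor of double-stranded RNA with a mean under 5 CPM, had 2.07 and 2.2 CPM in side A and 6.67 and 5.85 CPM in side B. At 5 CPM or more 1 of 11 was higher and 1 lower.

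In lists of general stress responses a few members each passed 2-fold, beside 7.68% higher and 8.69% lower of all genes at 5 CPM or more. The shares higher and lower were 14.3% and 0% in the ATF4 list, 5% and 5% for endoplasmic reticulum chaperones, and 23.8% and 0% for cytosolic heat shock. The phosphatase subunit gene PPP1R15A, which reverses the integrated stress response and whose promoter is shown above, stood at 206 and 205 CPM in side A and 19.1 and 19.8 CPM in side B, a log2 fold change of 3.4 ± 0.046, with rescue at 56.1 and 51.5 CPM. ATF4, the factor of that response, had 589 and 579 CPM in side A and 213 and 209 CPM in side B, and PPP1R15B had 184 and 185 CPM in side A and 84 and 82.3 CPM in side B, and these were the 3 of 21 genes higher, with 0 lower and a median of 0.07. PSPH, for serine synthesis, had the lowest value of the list, -0.66, and SESN2, a brake on mTORC1, was just under 2-fold at 0.996. Of 20 endoplasmic reticulum chaperone genes, DNAJB9 was higher, with a log2 fold change of 1.93, but overlaps PNPLA8 and THAP5, and XBP1, a factor of the unfolded protein response, lower at -1.09. The chaperone HSPA5 was at 0.29. In the cytosolic heat shock list 5 of 21 genes were higher and 0 lower. HSPB8 stood at 192 and 192 CPM in side A and 34.4 and 35.1 CPM in side B, and its partner BAG3, which hands clients to autophagy, at 86.2 and 86.7 CPM in side A and 30.6 and 30.5 CPM in side B. HSPH1, DNAJB1 and DNAJB6 had log2 fold changes of 1.27, 1.17 and 1.12. For each of them rescue lay below side B in scaled CPM, as with HSPH1 at 113 and 112 CPM. The gap was smallest for DNAJB6, at 82.8 and 83.7 CPM in rescue and 95 and 93.3 CPM in side B. DNAJB1 overlaps TECR.

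Of 16 hypoxia targets 4 were higher and 0 lower. NDRG1 stood at 283 and 280.3 CPM in side A and 60.3 and 59.98 CPM in side B, with rescue above side A at 441 and 415 CPM, and VEGFA, the vascular growth factor, at 99.3 and 97.8 CPM in side A and 27.9 and 27 CPM in side B, with rescue close to side B at 28.7 and 28.3 CPM. DDIT4 and PFKFB4 had log2 fold changes of 1.17 and 1.38, of which PFKFB4 overlaps UCN2. Of 16 glycolysis genes, the glucose transporter SLC2A3 had 86 and 84.1 CPM in side A and 21.5 and 21.7 CPM in side B, PFKP reached 1.04, and the other 14 were within 2-fold. Among 23 p53 targets 4 were higher and 0 lower. The apoptosis inducer PMAIP1 had 171 and 173 CPM in side A and 32.3 and 32.1 CPM in side B and the cell cycle inhibitor CDKN1A had 286 and 283 CPM in side A and 107 and 104 CPM in side B, with rescue above side A at 492 and 456 CPM. The polo-like kinase genes PLK3 and PLK2 had log2 fold changes of 2.04 and 1.19, and PLK3 overlaps TCTEX1D4. In cholesterol synthesis 4 of 20 genes were higher, and 0 lower. HMGCS1, an early enzyme of the pathway, stood at 773 and 793 CPM in side A and 234 and 234 CPM in side B, and the sterol sensor gene INSIG1 at 56.6 and 56.7 CPM in side A and 21.4 and 21.5 CPM in side B. MVK, mevalonate kinase, pointed the other way at -0.9, within 2-fold. With library totals 2 were higher and 1 lower. MCL1, an antiapoptotic gene with a short-lived product, had 613 and 615 CPM in side A and 190.4 and 195 CPM in side B, and the proapoptotic BCL2L11 was higher at 1.25. BMF, likewise proapoptotic but with a mean under 5 CPM, stood at -1.82, and the caspase gene CASP8 stood at -0.99, within 2-fold.

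TXNIP, an inhibitor of glucose uptake that responds to glucose through MondoA, had 5.57 and 5.45 CPM in side A and 11.8 and 12.6 CPM in side B, a log2 fold change of -1.15 ± 0.060, while rescue stood at 372 and 354 CPM. Its relative ARRDC3 had 21.1 and 20.05 CPM in side A and 31.5 and 33.5 CPM in side B and 376 and 366 CPM in rescue. Rescue thus lay well above either side for these genes. MXD4, a repressor of MYC targets, had 31.3 and 29.2 CPM in side A and 14.2 and 13 CPM in side B, and MYC itself was under 2-fold at 0.62. MYCL, a MYC relative, had 9.35 and 9.87 CPM in side A and 2.21 and 2.16 CPM in side B, with rescue above side A at 21.2 and 19.9 CPM.

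Growth and developmental signalling genes were mixed. Of 18 genes of the TGF-beta and BMP response 7 were higher and 3 lower. BAMBI, a decoy receptor, had 22.2 and 22.2 CPM in side A and 3.96 and 3.97 CPM in side B, and the ligand gene BMP6 had 24.2 and 26.1 CPM in side A and 8.37 and 8.33 CPM in side B, with rescue near side A in both. The inhibitors of differentiation split. ID4 was higher with 44.5 and 46.5 CPM in side A and 9.69 and 8.83 CPM in side B, and ID1 and ID3 were lower with 34.2 and 31 CPM in side A and 89.1 and 89.7 CPM in side B, and with 24.2 and 22.9 CPM in side A and 61.6 and 59.7 CPM in side B. Rescue stood at 209.6 and 199 CPM for ID1 and 177 and 166 CPM for ID3, above either side. Targets of YAP and TEAD, which respond to cell shape and tension, were higher in 6 of 17 and lower in 0. F3, tissue factor, whose promoter is shown above, had 47 and 44.3 CPM in side A and 7.5 and 7.16 CPM in side B, and TEAD4 had 368 and 371 CPM in side A and 88.4 and 86.8 CPM in side B, with rescue below side B at 54.3 and 51.9 CPM. CTGF and ANKRD1 had log2 fold changes of 1.15 and 1.17, and CRIM1, which overlaps FEZ2, 1.26. Actin and SRF targets held 0 of 18 genes past 2-fold, from TPM1 at -0.94 to ACTA2 at 0.81. ACTA2 overlaps FAS and STAMBPL1. With library totals 1 gene of the list was lower. In the Notch list 0 of 6 genes at 5 CPM or more passed, although HEY1, with a mean under that level, had 9.13 and 7.69 CPM in side A and 0.751 and 0.71 CPM in side B.

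The circadian genes NFIL3, NR1D1 and CRY2 differed widely. NFIL3 and NR1D1, both transcriptional repressors, had 69.7 and 69.1 CPM in side A and 15.2 and 15.2 CPM in side B, and 92.9 and 90.7 CPM in side A and 23.4 and 23.3 CPM in side B. CRY2 had 5.46 and 5.27 CPM in side A and 18.4 and 19.4 CPM in side B while its paralog CRY1 had 64.1 and 69.1 CPM in side A and 28.5 and 28.1 CPM in side B, in opposite directions. Of 17 genes 4 were higher and 2 lower, and with library totals 3 and 3. NR1D1 overlaps THRA. BHLHE41, another repressor of the clock, was lower at -1.61 and overlaps SSPN.

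Matrix genes with a higher level in side A were MMP3 at 71.9 and 79.5 CPM in side A and 14 and 14.1 CPM in side B, MMP13 at 12.7 and 13.7 CPM in side A and 2.33 and 2.23 CPM in side B, which are collagen- and matrix-degrading proteases, and their inhibitor TIMP3 at 356 and 355 CPM in side A and 79.2 and 78.9 CPM in side B, which overlaps SYN3. They were 3 of 23, with 0 lower. Among 29 histone modifier genes 5 were higher, all of them demethylase genes (KDM1A was the remaining one). KDM7A had 60.5 and 63.4 CPM in side A and 15.5 and 15.8 CPM in side B, KDM5B had 232 and 229.9 CPM in side A and 82.5 and 78.5 CPM in side B, and KDM6A and KDM6B had log2 fold changes of 1.21 and 1.04. SUV39H1, a methyltransferase of heterochromatin, was lower at -1.22. With library totals 3 were higher and 3 lower.

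Control of transcription and RNA processing differed in single genes. HEXIM1, the inhibitor of the elongation kinase P-TEFb, stood at 119 and 117 CPM in side A and 38.3 and 39.98 CPM in side B, and ELL2, a subunit of the super elongation complex, at 237 and 244 CPM in side A and 65.8 and 70.8 CPM in side B. BRD2, a bromodomain protein of acetylated chromatin, had 519 and 510.0 CPM in side A and 206 and 204 CPM in side B and overlaps HLA-DMA. With ELL, at 1.21, they were the 4 of 21 genes higher, with 0 lower and a median of 0.33. In cleavage and polyadenylation, RBBP6, which activates cleavage, was higher with 332 and 346 CPM in side A and 85.6 and 88 CPM in side B, a log2 fold change of 1.97 ± 0.037. SCAF4, which restrains early polyadenylation, was higher at 1.09. The genes of 2 CstF subunits were lower, with CSTF2T at 11 and 10.1 CPM in side A and 42.7 and 43.7 CPM in side B, a log2 fold change of -2.03 ± 0.058, and CSTF1 at 27 and 24.7 CPM in side A and 59.4 and 59.6 CPM in side B. CSTF2T overlaps PRKG1. For RBBP6, CSTF2T and CSTF1 rescue was at or near side B, as with RBBP6 at 90.6 and 87.8 CPM and CSTF2T at 42.3 and 40.02 CPM. CPSF6, a subunit that selects distal sites, was at 0.32. Of the 25 genes 2 were higher and 3 lower, the third being PAPOLG at -1.2. INTS5, of the Integrator complex, was its list's only gene past 2-fold of 14, with 6.73 and 7.03 CPM in side A and 23.6 and 22.3 CPM in side B, and overlaps AP001458.2. SRSF6 was the 1 gene higher of 23 splicing genes, at 1.02, and 0 were higher with library totals.

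P-body genes are of interest in a line that carries a decapping protein. DCP1A itself, whose counts include any reads of the transgene that match it, had 863 and 885 CPM in side A and 940.3 and 934 CPM in side B, a log2 fold change of -0.1 ± 0.035, and overlaps CACNA1D. Rescue was lower than either side at 461 and 438 CPM. Its paralog DCP1B had 11.8 and 11.5 CPM in side A and 44.8 and 45.1 CPM in side B, a log2 fold change of -1.94 ± 0.053, with rescue at 68.4 and 73.2 CPM, above side B. DCP1B overlaps CACNA1C. The catalytic subunit DCP2 and the helicase DDX6 differed by little, with log2 fold changes of 0.26 and 0.19. ZFP36, which brings AU-rich mRNAs to decay, stood at 27.1 and 26.1 CPM in side A and 3.88 and 3.88 CPM in side B, and its relative ZFP36L2 at 103 and 104 CPM in side A and 33.8 and 35 CPM in side B. AGO2, the slicing Argonaute, was just under 2-fold at 0.94. ZFP36 and ZFP36L2 were higher and DCP1B lower among 32 genes, with a median of 0.19.

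**Figure D5:**
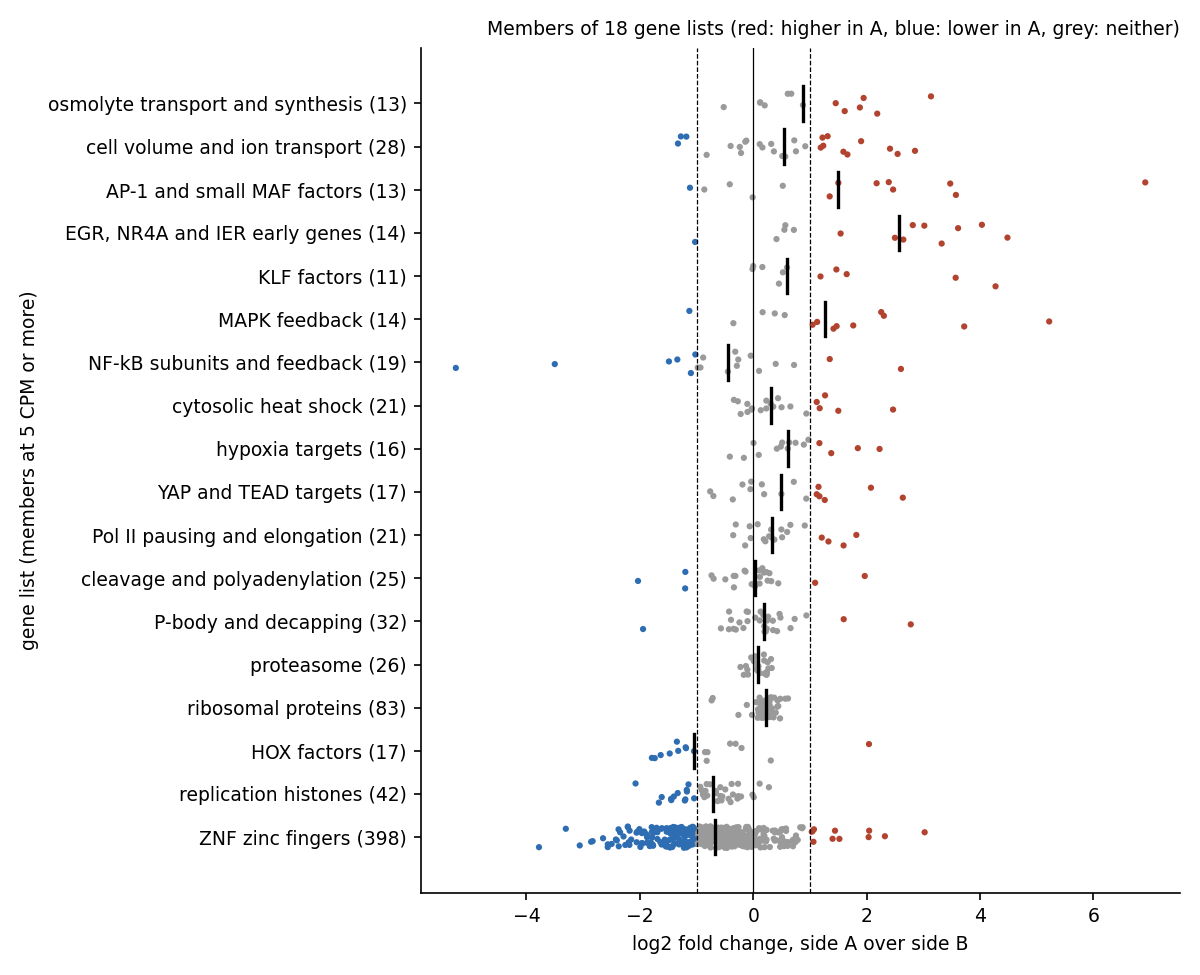
Log2 fold change of side A over side B for the members at 5 CPM or more of 18 gene lists, 1 point per gene, with a black bar at each list's median and dashed lines at 2-fold. Early gene lists extend to the right, as FOSB at 6.91, proteasome and ribosomal protein genes lie within 2-fold, and ZNF, HOX and histone genes extend to the left.

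ZNF zinc finger genes were more often lower than higher in side A. These factors, many of them repressors of retroelements with a KRAB domain, had 133 of 398 genes at 5 CPM or more lower (33.4%, beside 8.69% of all) and 11 higher. The median over those 398 genes was -0.68. With library totals 159 were lower and 7 higher. ZNF239 had 5.76 and 5.67 CPM in side A and 57 and 56.2 CPM in side B, ZNF662 had 1.43 and 1.57 CPM in side A and 20.8 and 20.3 CPM in side B and ZNF572 had 1.23 and 1.17 CPM in side A and 9.9 and 10.2 CPM in side B. For ZNF572 and ZNF662 rescue was above side B, at 36.3 and 35.7 CPM and 38.2 and 37.2 CPM. ZNF114 and ZNF804A were exceptions in the upward direction, with 77.7 and 71.7 CPM in side A and 9.5 and 8.87 CPM in side B, and 9.27 and 9.04 CPM in side A and 0.462 and 0.434 CPM in side B, the latter with a mean under 5 CPM. ZNF662 and KRBOX1, which has 2.05 and 2.02 CPM in side A and 21.9 and 22.2 CPM in side B, overlap each other, so they are not independent. Genes of the family resemble each other and reads could be split between copies. The ZBTB factors, a further zinc finger family, had 3 higher and 4 lower of 36, and 2 and 8 with library totals. ZBTB1 had 251 and 252 CPM in side A and 80.6 and 78.9 CPM in side B and overlaps ZBTB25, and ZBTB37 had 9.04 and 9.18 CPM in side A and 37.4 and 39.2 CPM in side B, with rescue above side B at 68.4 and 75.3 CPM.

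HOX genes, which carry positional identity, were lower in 9 of 17 at 5 CPM or more (52.9%) and higher in 1. HOXA9 had 9.12 and 10.5 CPM in side A and 26.7 and 27.8 CPM in side B, HOXA10 had 3.83 and 5.0 CPM in side A and 13.2 and 14.1 CPM in side B and HOXA11 had 2.62 and 3.12 CPM in side A and 9.91 and 9.86 CPM in side B, and for these rescue stood above side B, as with HOXA11 at 15.9 and 14.1 CPM. HOXC4 had 26.4 and 26.4 CPM in side A and 67.1 and 67.2 CPM in side B and HOXC8 had 3.05 and 3.39 CPM in side A and 10.6 and 10.8 CPM in side B. Rescue for HOXC8 was below either side, at 2.3 and 2.16 CPM. HOXC13 was the exception, at 35.8 and 35.2 CPM in side A and 8.77 and 8.49 CPM in side B, while HOXC10 in the same cluster was at 0.31. HOXA9, HOXA10, HOXC4, HOXC8 and HOXC10 overlap other gene models of their clusters. With library totals 1 was higher and 10 lower. Of the factors of the bone lineage, RUNX2, the osteoblast factor, was lower at 19.4 and 19.8 CPM in side A and 78.8 and 77.6 CPM in side B, a log2 fold change of -2.0 ± 0.049. It overlaps SUPT3H.

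Replication histones, made in S phase and mostly without poly(A) tails, were lower in 13 of 42 and higher in 0, with a median of -0.71. HIST1H4E had 94.7 and 90.4 CPM in side A and 251 and 255 CPM in side B and HIST1H2BN, which overlaps HIST1H2AK and HIST1H2AL, had 36.6 and 34.8 CPM in side A and 114 and 113 CPM in side B. In rescue they were nearer side A than side B, at 97.9 and 93.9 CPM and 45.8 and 44.8 CPM. HIST1H3E differed, with 2.3 and 2.29 CPM in side A, 9.6 and 9.74 CPM in side B and rescue above side B at 11.1 and 11.2 CPM. Copies are near-identical in sequence, so single values are uncertain. The list of G2 and mitotic genes held 3 lower and 0 higher of 26, with a median of -0.42. AURKA, a mitotic kinase, had 70.6 and 67.2 CPM in side A and 139.6 and 142 CPM in side B, CENPE, a kinetochore motor, had 128 and 134 CPM in side A and 266 and 274 CPM in side B, and CDC25C, the phosphatase that activates CDK1, had 11 and 11.6 CPM in side A and 25.7 and 24.7 CPM in side B and overlaps FAM53C. In S phase, GINS1 and E2F2 were lower at -1.26 and -1.2, and CCNE1, which starts S phase, was at 0.84. With library totals 6 of the mitotic genes and 17 of the histones were lower.

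In several lists all genes at 5 CPM or more stayed within 2-fold, beside 7.68% higher and 8.69% lower over all genes at that level. At those shares few genes of a list of 11 to 16 would pass. All 83 ribosomal protein genes at 5 CPM or more did so, from RPL39L at -0.73 to RPL13A at 0.61, with a median of 0.22. All 26 proteasome genes had log2 fold changes between -0.23 and 0.33 (PSMD3), and all 13 mitochondrially encoded genes between MT-ND4 at -0.5 and MT-ND1 at 0.39. Of 11 paraspeckle and FET genes 0 passed, with SFPQ the most distant at 0.84. Of 16 genes of the NRF2 response and metallothioneins 0 passed, from MT1E at -0.72 to GCLC at 0.96. With library totals the counts were the same for the lists of osmolytes, ion transport, EGR and NR4A, KLF, hypoxia, p53, elongation, P-bodies and matrix. Among lists whose counts differed, beside those said above, the AP-1 list then had 8 higher and 2 lower, YAP 5 and 0, TGF-beta 6 and 3, heat shock 4 and 0, ATF4 2 and 0, glycolysis 1 and 0, cleavage and polyadenylation 1 and 3, cytokines 1 and 2, and the BCL2 family 2 and 2.

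Among genes with at least 5 CPM in the mean of the higher side, the largest ratios mostly belonged to genes almost silent in side B. Genes could enter through side A alone, so low levels in side B follow in part from this ranking. AGR3, EGR4 and IL17REL averaged under 5 CPM over the libraries of the sides. AGR3, a disulfide isomerase relative, had 5.78 and 6.08 CPM in side A and 0 and 2 counts in side B. Its ratio was 608, with an exact 95% counting interval from 168 to 5030. THEMIS, known from thymocytes, had 22.2 and 23.3 CPM in side A and 0.0193 and 0.0788 CPM in side B, a ratio of 467 (interval 254 to 975), and AGR2 had 23.3 and 26.3 CPM in side A and 0.0963 and 0.0591 CPM in side B, a ratio of 317 (195 to 556). These intervals cover counting error only. CALB1, a calcium buffer, had 55.9 and 54.4 CPM in side A and 0.183 and 0.227 CPM in side B, SEMA4A, a semaphorin, had 9.75 and 10.6 CPM in side A and 0.0193 and 0.0591 CPM in side B, and EGR4 had 6.51 and 6.85 CPM in side A and 0.0193 and 0.0394 CPM in side B. SPATA16, TTLL8 and IL17REL completed, with FOSB, the 10 largest, with fitted log2 fold changes of 6.89, 6.78 and 6.4. IL17REL lies 2464 bases downstream of TTLL8 on the same strand, and SEMA4A 7277 bases downstream of LMNA. Whether reads of an upstream gene enter these counts was not tested, so TTLL8 and IL17REL may not be independent. In rescue THEMIS stood at 2.32 and 2.28 CPM and CALB1 at 12 and 13.4 CPM, between the sides. Beyond those already named, the lowest ratios were those of ITGAD, USP51, GVQW3, CLDN20 and C1orf74, at log2 fold changes of -3.43, -3.4, -3.39, -3.21 and -3.15. Of these, ITGAD, USP51 and C1orf74 averaged under 5 CPM over the libraries of the sides. CLDN20 overlaps TFB1M and C1orf74 overlaps TRAF3IP3.

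Markers of other cell types were checked in the same way. Of the bone lineage list, COL1A1 had 1064 and 974 CPM in side A and 1191 and 1180.4 CPM in side B, SPARC had 806 and 773 CPM in side A and 755 and 754 CPM in side B, VIM was between 1551 and 2033 CPM, and ALPL, BGLAP, IBSP, SPP1, SP7, TWIST1 and COL1A2 had a mean below 5 CPM. Of 12 epithelial markers 3 were at 5 CPM or more. They were KRT18 at 357 and 352 CPM in side A and 170.0 and 170.1 CPM in side B, KRT8, which overlaps it, at 262 and 259 CPM in side A and 181 and 179 CPM in side B, and CLDN4 at 23 and 21.4 CPM in side A and 9.86 and 10.2 CPM in side B. With library totals 0 of the 3 passed 2-fold. CDH1 was between 0.624 and 0.934 CPM. The summed level of the list was 654 and 643 CPM in side A and 371 and 370 CPM in side B. The leukocyte list summed to 17.8 and 20.3 CPM in side A and 9.09 and 9.69 CPM in side B, with PTPRC at 0.327 to 1.12 CPM. CSF1R was its gene at 5 CPM or more, with 6.81 and 7.31 CPM in side A and 3.88 and 4.13 CPM in side B. FCGR3A and CD3E were at 0 in each of the 4 libraries. Endothelial markers summed to 75.1 and 72.9 CPM in side A and 39.5 and 39.3 CPM in side B. PECAM1 made up much of that difference with 27.1 and 27.8 CPM in side A and 3.64 and 3.55 CPM in side B. ESAM, with a mean under 5 CPM, had 6.73 and 6.2 CPM in side A and 0.77 and 0.769 CPM in side B. The defining gene CDH5 stood at 2.52 and 2.57 CPM in side A and 2.60 and 2.80 CPM in side B. EGFL7 had 26.61 and 25.27 CPM in side A and 22.14 and 21.75 CPM in side B. ROBO4 went the other way, with 2.57 and 1.92 CPM in side A and 4.71 and 5.25 CPM in side B. At any level, 4 of the 10 endothelial genes were higher and 1, ROBO4, lower, beside 14.4% and 10.6% of all genes tested. The part of these lists in the results was not tested.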

How the data were processed

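Total RNA of U2OS-GFP-DCP1A cells was sequenced in 6 libraries (2 isotonic, 2 hypertonic, 2 rescue). The labels' protocols describe removal of ribosomal RNA, uridine digestion after strand synthesis, and sequencing of each sample in duplicates. The authors deposited raw counts per gene symbol, 1 table per library, and the submitters' processing notes name bcl2fastq, TopHat2, Bowtie2, bedtools and GRCh38/hg38. For the counting, annotation and strand setting were not given in the sources used here, so a gene cannot be told apart from an overlapping or antisense partner, and near-identical copies may share reads. Library totals were 90196278 to 105991428 counts, so 1 count was about 0.01 CPM.

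Tables were joined on gene symbol (19940 rows, 19907 names, 33 of them repeated and not named in the text). Genes kept by edgeR's filterByExpr for the sides (18208) were scaled by the trimmed mean of M-values and fitted with edgeR 4.0.16 (R 4.3.3) by quasi-likelihood, with Benjamini-Hochberg adjustment over all of them and a threshold of 0.05. Side A against side B was given no test, because whole profiles chose the sides, and its F statistic served only to derive the SE. Hypertonic against isotonic was tested as labelled (all 6 libraries by group), and as a term added to the 3 means of side A, side B and rescue. Named were the 4 markers, the 10 largest rises and the 10 largest falls with at least 5 CPM in the mean of the higher side, up to 5 members per list by size, and the calls within the crossed pairs. A further 24 genes, and those that differed 2-fold within a side, were added after their values were seen. Some genes are not reported here. The members and lists were chosen with earlier results of these data known. Ratios of rare counts carry exact 95% intervals, which cover counting error only. Coordinates are from GENCODE 29 on GRCh38, where 6616 rows overlap another gene, and promoters from RefSeq (GRCh38.p14). The fits were tested on simulated counts. Alternatives were DESeq2 1.42.0, limma 3.58.1 voom, other scalings, filters and fold thresholds, a replicate block, and leaving out each library.

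Whether a shared number pairs the libraries was checked on the differences of number 1 from number 2. Isotonic with hypertonic gave r = -0.99 across 12688 genes, which the crossing of the sides fixes. With the sides held apart, the correlation was 0.0217 between side A and side B, 0.225 between side A and rescue and -0.0192 between side B and rescue. They were not all above 0.1, so the numbers were not taken to pair the libraries.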

Additional observations from a re-analysis of the deposited data

Results flagged for a closer look

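The hypertonic to isotonic ratio had opposite signs under the 2 replicate numbers for each of the 4 markers. For SLC38A2 the log2 ratio was 3.14 with number 1 and -3.13 with number 2. NFAT5 had 1.605 with number 1 and -1.621 with number 2, and FOS had 3.658 and -3.496. SLC6A6 had 1.933 and -1.962. SLC38A2, NFAT5 and FOS helped choose the sides, so their values describe that choice. The difference between the numbers was not tested, since each number has 1 library per label. The labels of number 2 may be exchanged.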

How the results depend on the processing

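The counts of side A against side B stayed within 1.5 times of the reported ones under DESeq2's size factors, upper quartile scaling, library totals, no filter on low counts, the 4 side libraries alone, DESeq2 fold changes and without the rows of RPS29, PTPRD and ANKRD28, which enclose 7SL copies. With a mean of at least 1 CPM, 1565 genes were higher in place of 2613. A 1.5-fold threshold gave 3870 genes lower and, at 5 CPM or more, 1838 higher and 2591 lower. A 4-fold threshold gave 1220 higher and 342 lower and, at 5 CPM or more, 280 and 108. Leaving out 1 library gave 2772 to 2829 higher and 2018 to 2070 lower, and at 5 CPM or more 905 to 1022 and 1066 to 1190. Library totals turned the split of all genes tested to 2291 higher and 2501 lower. Of 261 named log2 fold changes, the 169 of at least 1 in size had the same sign under all 14 alternatives. The 1.5-fold and 4-fold thresholds among these leave every fold change as it is. The sides were chosen from these values, so the unchanged signs support nothing. Below that size JUN became 0.0043 with DESeq2's size factors and 0.0012 without hypertonic 2, and SPARC -0.084 with library totals. Library totals moved 252 of the 261 by at least their SE.

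By the labels, edgeR called 0 genes under every alternative, and DESeq2 called 1 lower. Within the crossed pairs, genes higher and lower were 3 and 1 with DESeq2, 4 and 2 with limma voom, 2 and 2 with DESeq2's size factors and 2 and 5 without the filter. Leaving out 1 library gave 3 to 9 higher and 10 to 26 lower, the most without rescue 1. These low counts thus rest on the set of libraries fitted, and where a side is left with 1 library that library is assumed to vary like the others. With the replicate number as a block, 3 were higher and 9 lower within the crossed pairs, and 0 and 0 as labelled. The crossed pairing itself is the fit within sides, with 1 higher and 2 lower. SULT1C2 was called under every alternative that kept all 6 libraries, and these alternatives share the pairs chosen for likeness. SULT1C4 became 4.103 without hypertonic 1 and 4.128 without isotonic 2 (adjusted p = 1), and -9.53 without hypertonic 2, as most of its counts come from isotonic 2. ANKRD28 lost its call under the block (adjusted p = 0.25). Depth limits the rarest genes, as the interval of AGR3 shows.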
